A study of Macaca mulatta with 8 samples.

Results

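Effector and naive-like regulatory T cells (Tregs) that were sorted together from the blood of rhesus macaques were compared within the same library, once on day 3 and once on day 20. Members were the cells of the CD25high CD127low sort that the submitters' deposited annotation names endogenous effector Tregs or endogenous naive Tregs. There were 461 effector and 798 naive-like cells on day 3 and 444 and 412 on day 20, or 2115 of the 5690 cells in both libraries and of the 25397 cells in the series.

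The series title places the study in adoptive transfer of Tregs in rhesus macaques, followed over time. Cryopreserved blood mononuclear cells were enriched for CD4-positive cells, sorted by flow cytometry into 4 populations on each of 2 days, and run as 8 droplet libraries that count RNA molecules by unique molecular identifiers (UMIs). The endogenous sort took CD3-positive, CD4-positive, CD25high, CD127low cells, and the labels do not say whether dye-labelled cells were gated out of it. A separate sort of cells positive for CFSE, a dye that marks cells labelled before transfer, is taken from the title as the transferred cells. The labels name no animal, age, genotype or treatment behind either endogenous library, nor whether animals were pooled. With 1 library per sort and day there are no replicates, so no test was run and no p-values are given. All intervals are 95% intervals that cover counting error only, and PCR reads were already collapsed to UMIs in the counts.

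Tregs are CD4-positive T cells that depend on the transcription factor FOXP3 and restrain immune responses. Naive or resting Tregs resemble other naive T cells in that they carry the transcription factors TCF7 and LEF1 and recirculate through lymph nodes. Effector Tregs have met antigen, lose much of that program, and gain suppressive receptors such as CTLA4 and GITR together with adhesion and migration molecules for tissues.

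The class names were made by the submitters from the RNA of these same cells, by a method not given in the sources used here, so the differences between the classes describe them and do not test them. Of the effector cells, 454 of 461 on day 3 and 444 of 444 on day 20 lay in the submitters' cluster 3. Of the naive-like cells, 715 of 798 and 379 of 412 lay in cluster 4, and the other 83 (10.4%) and 33 (8.01%) lay in cluster 3. Effector cells made up 36.6% (33.9 to 39.3) of both named classes on day 3 and 51.9% (48.5 to 55.3) on day 20. They made up 13.8% and 19.0% of all cells of the sort, and most other cells of the sort carried the submitters' Tconv class name (2037 of 3347 and 1356 of 2343 cells). That class serves below as the conventional reference from the same library. Between the days, 9 cell barcodes were shared among all cells of both libraries and 2 among the members.

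The classes were sequenced to like depth and differed in complexity. Class sums ran from 1144064 to 2639307 UMIs, so that 1 UMI was worth 0.379 to 0.874 CPM, the count scaled to a common library total. Effector and naive-like cells had median UMIs of 3363 and 3196.5 on day 3 and of 2457.5 and 2712.5 on day 20. The median number of genes per cell was 1168 against 872 and 912.5 against 819, and at 1000 UMIs per cell it was 498 against 395 and 497.5 against 410. Genes for ribosomal proteins took 29.4% of effector UMIs against 43.6% of naive-like UMIs on day 3, and 31.5% against 43.5% on day 20. The Tconv class, at 42.5% and 41.1%, lay beside the naive-like cells. Median mitochondrial shares were 3.80% in both classes on day 3 and 3.28% against 3.37% on day 20. Cells with over 2 times the median UMIs, or at least 3 UMIs of markers of red cells, B cells, monocytes or platelets, made up 11.9% of effector against 6.64% of naive-like cells on day 3, and 11.3% against 3.16% on day 20.

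Both classes carried Treg transcripts on both days. FOXP3 RNA stood at 235 CPM (212 to 260) in effector and 110 CPM (98.0 to 124) in naive-like cells on day 3. On day 20 it stood at 203 (180 to 229) and 64.7 CPM (50.8 to 81.2). The Tconv class held 17.5 and 16.9 CPM, so the order was effector, naive-like, Tconv on each day without overlapping intervals. IL2RA, the CD25 chain used in the sort, stood at 766 against 492 CPM on day 3 and, on day 20, at 387 against 281 CPM, above 122 and 121 CPM in the Tconv class. IL7R, which encodes CD127, was lower in both Treg classes (126 and 159 CPM on day 3, 188 and 263 CPM on day 20) than in the Tconv class (585 and 638 CPM). CTLA4 stood at 138 against 50.8 CPM and 136 against 38.5 CPM. Of the markers that would define a naive cell, TCF7 and LEF1 were higher in naive-like cells on both days, while CCR7 stood at no more than 2.65 CPM in either class. Of effector markers, PRDM1 and S100A4 were higher in effector cells, while CCR4 (6.62 against 0.38 CPM and 4.50 against 0.87 CPM) was low and CD74 was at or near 0.

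Ratios below are log2 ratios of effector over naive-like CPM after adding 10 CPM to both, which understates the change of low genes. A gene was called where this ratio reached 2-fold in the same direction on both days and the level was 50 CPM or more in one of the classes each day. Of 1966 genes that met the level, 201 (10.2%) were called higher in effector Tregs and 13 (0.661%) lower. Day 3 alone gave 335 higher genes (15.5% of 2156) and 20 lower (0.928%), and day 20 alone gave 298 (13.7% of 2168) and 22 (1.01%). No gene was called in opposite directions on the 2 days. The medians of the called genes were 1.36 on day 3 and 1.41 on day 20 for the higher genes, and -1.40 and -1.81 for the lower ones. The submitters had marked 171 of the 201 and 12 of the 13 genes for ordering cells, against 760 of the 1966 genes, so most called genes belong to a set chosen from these cells.

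**Figure D1:**
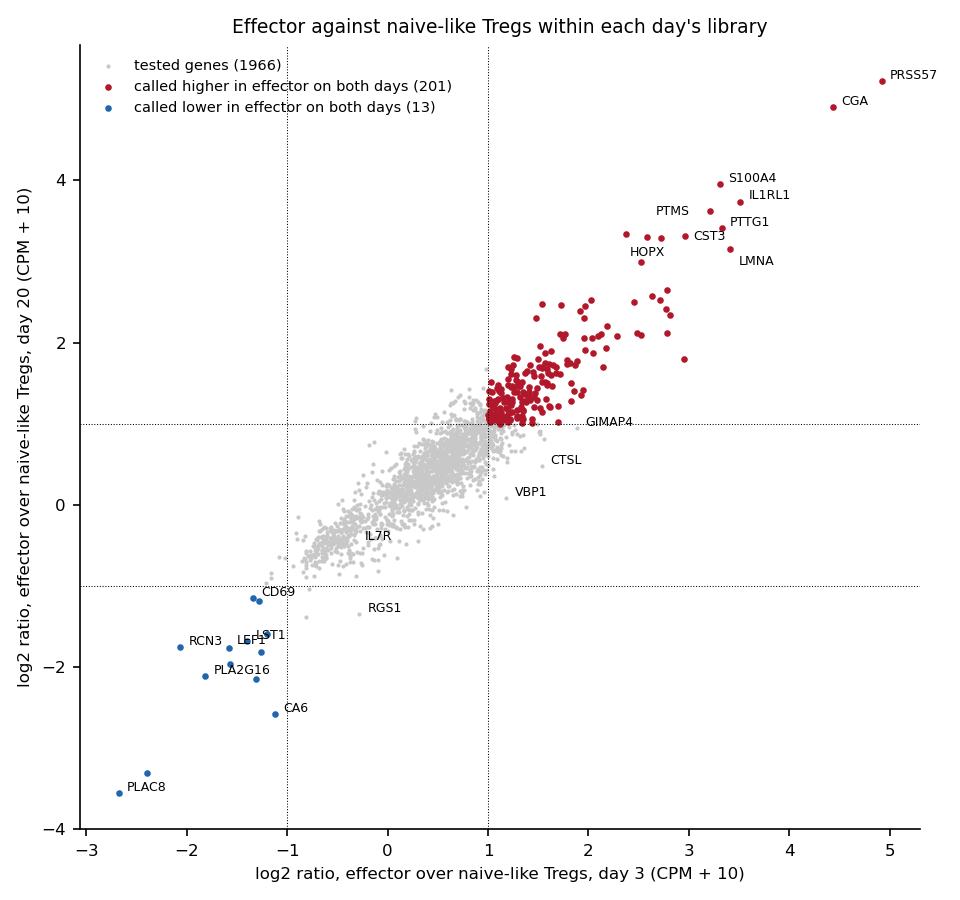
Each point is 1 of 1966 genes, placed by its log2 ratio of effector over naive-like Tregs (CPM + 10) on day 3 (horizontal axis) and day 20 (vertical axis). The 201 red genes are at least 2-fold higher in effector cells on both days and the 13 blue genes at least 2-fold lower, and PRSS57 and CGA lie farthest to the upper right.

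The balance of 201 to 13 depends on the scaling. Ribosomal protein RNA takes a smaller part of the effector sums, and CPM share out what it leaves. How much of the balance comes with this was not tested. The median gene at 50 CPM had a ratio of 0.51 on day 3 and 0.44 on day 20, and 81.3% and 76.3% of genes lay above 0. Scaling with TMM factors moved the median gene by -0.42 and -0.32 and gave 69 higher and 48 lower genes. Median-of-ratios size factors gave 68 and 49. Totals of named genes that leave out ribosomal protein, mitochondrial and hemoglobin genes gave 60 and 77. The share of higher genes among those called was thus 93.9% by CPM and 59.0%, 58.1% and 43.8% by these scalings. Of the 77 lower genes by totals of named genes, 24 were ribosomal protein genes, which those totals leave out. So were 8 of the 48 with TMM factors and 0 of the 13 by CPM. Under all 4 scalings, 60 of the 201 higher and all 13 lower genes were called, and all 201 stayed above 0 on both days. The 15 higher genes named next and the 13 lower genes were past 2-fold under each of them. The alternatives moved genes down by a like amount, with medians of -0.32 to -0.43, less than the 2-fold threshold. That the 201 stayed above 0 and the 13 stayed lower thus followed from the shift and is no further support. The same holds for the 15, whose ratios lie well past 2-fold.

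PRSS57, CGA and IL1RL1 had the largest ratios on the effector side. PRSS57 encodes a serine protease known from neutrophil granules. It stood at 419 CPM (388 to 451) in effector and 4.17 CPM (2.08 to 7.46) in naive-like cells on day 3, and at 397 (364 to 432) and 0.87 CPM (0.022 to 4.87) on day 20. CGA, the alpha chain shared by the glycoprotein hormones, stood at 289 (263 to 316) and 3.79 CPM (1.82 to 6.97) on day 3. On day 20 it stood at 734 (689 to 782) and 14.9 CPM (8.66 to 23.8). IL1RL1, the receptor for interleukin 33, stood at 194 (174 to 217) and 7.96 CPM (4.93 to 12.2) on day 3 and at 264 (237 to 293) and 10.5 CPM (5.42 to 18.3) on day 20. For each of the 3, effector cells were high and naive-like cells low on both days, with no overlap of intervals, and the Tconv class held between 3.15 and 7.93 CPM. Their log2 ratios were 4.92 and 5.23, 4.44 and 4.90, and 3.51 and 3.74.

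A minority to a bare majority of effector cells carried these RNAs. With each cell thinned to 1000 UMIs, PRSS57 was seen in 24.9% of effector cells (21.1 to 29.2) and 0.38% of naive-like cells on day 3, and in 29.95% (25.7 to 34.5) and 0.24% on day 20. In Tconv-class cells of the CD127-positive CD25-negative sort, which should lack Treg genes and has median UMIs of 2441 and 2185, it was seen in 0.10% and 0.28%. The interval of the naive-like share (0.078 to 1.09 on day 3, 0.0061 to 1.34 on day 20) overlapped that of the background on both days at this depth. Without thinning, 8 of 798 naive-like cells and 5 of 2960 background cells had a UMI on day 3. CGA was seen in 17.6% (14.2 to 21.4) and 38.7% (34.2 to 43.4) of effector cells, against 0.25% and 1.94% of naive-like cells. In the background, 0 of 2960 cells had a UMI of CGA on day 3, which by a limit of 3 counts allows up to 0.101% of cells with one, and 0.028% had one on day 20. The naive-like share of day 20 (0.84 to 3.79) lay above that background (up to 0.15). Of the 17 UMIs of CGA in naive-like cells on day 20, without thinning, 15 came from the 33 cells that lay in cluster 3. IL1RL1 was seen in 15.4% and 22.3% of effector cells, against 0.75% and 0.73% of naive-like cells and a background of 0.20% and 0.11%. Without thinning, the effector shares were 35.4% and 43.2% for PRSS57, 29.3% and 52.3% for CGA, and 29.3% and 40.8% for IL1RL1. The 10% of effector cells with the most PRSS57 held 60.5% of its UMIs on day 3 and 45.5% on day 20.

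Effector cells with 1 of these RNAs carried another more often than effector cells without it. At 1000 UMIs per cell, CGA was seen in 33.0% (24.6 to 42.4) of effector cells with PRSS57 and in 12.4% (9.14 to 16.4) of those without it on day 3. On day 20 these shares were 60.9% (52.1 to 69.2) and 29.3% (24.3 to 34.7). IL1RL1 was seen in 32.2% of effector cells with PRSS57 and 9.83% without it on day 3, and in 32.3% and 18.0% on day 20. Among cells with and without CGA, IL1RL1 was seen in 32.1% and 11.8%, and in 31.4% and 16.5%. The intervals of the 2 shares did not overlap for any pair on either day. At least 1 of the 3 RNAs was seen in 39.0% (34.6 to 43.7) and 56.8% (52.0 to 61.4) of effector cells. This count of shared cells was added after the values of the 3 genes were seen, and cells of 1 library are not replicates.

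**Figure D2:**
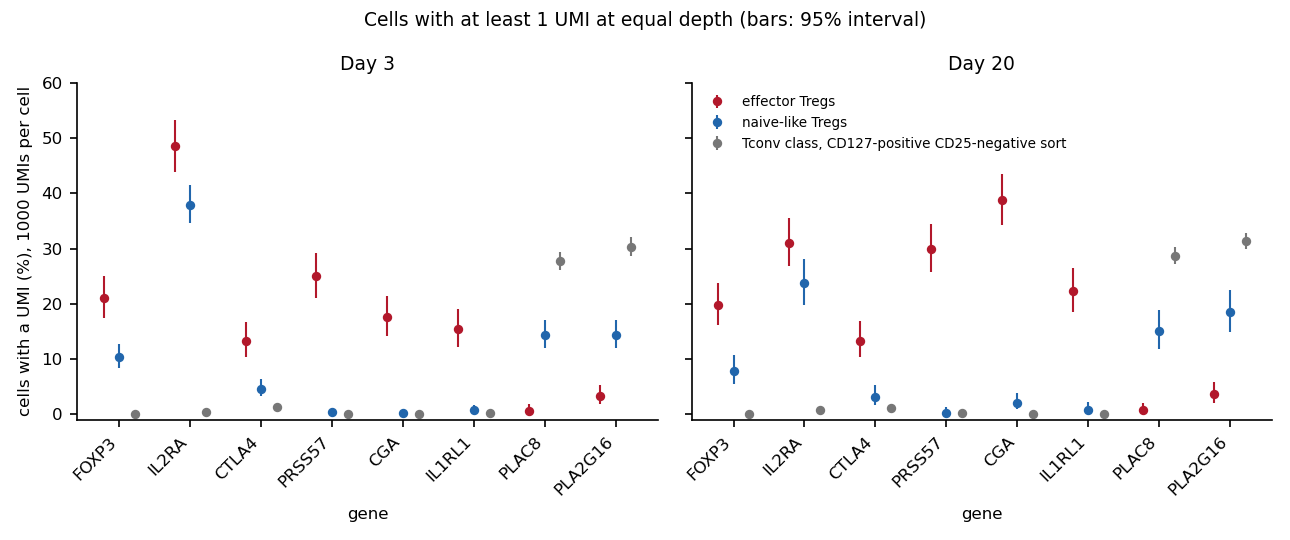
Percent of cells with at least 1 UMI of each gene after thinning to 1000 UMIs per cell, on day 3 (left) and day 20 (right), for effector Tregs, naive-like Tregs and Tconv-class cells of the CD127-positive CD25-negative sort. Points are shares and bars are Clopper-Pearson 95% intervals for counting error. PRSS57, CGA and IL1RL1 are seen in 15.4 to 38.7% of effector cells and in at most 1.94% of cells of the other 2 classes, while PLAC8 and PLA2G16 are seen least in effector cells.

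Other genes at the top of the effector side encode structural, calcium-binding and protease-inhibitor proteins. S100A4, a calcium-binding protein of motile and memory cells, stood at 5544 CPM (5431 to 5658) in effector and 551 CPM (523 to 580) in naive-like cells on day 3, and at 5272 (5150 to 5397) and 331 CPM (299 to 366) on day 20. The Tconv class, at 1741 and 1766 CPM, fell between the Treg classes. PTTG1, which encodes securin, stood at 547 against 45.5 CPM and 653 against 52.4 CPM, with 29.8 and 30.7 CPM in the Tconv class. Lamin A/C (LMNA) stood at 310 against 20.1 CPM and 228 against 16.6 CPM, with 104 and 127 CPM in the Tconv class. Parathymosin (PTMS) stood at 254 against 18.6 CPM and 222 against 8.74 CPM. Galectin 3 (LGALS3) stood at 621 against 81.8 CPM and 515 against 73.4 CPM. The cysteine protease inhibitors CST3 (112 against 5.68 CPM and 115 against 2.62 CPM) and CST7 (58.3 against 1.89 CPM and 83.9 against 1.75 CPM) were both high in effector cells alone, since the Tconv class held at most 4.72 CPM of CST3 and 13.7 CPM of CST7. PDLIM1, which links actin to signalling proteins, stood at 108 against 7.20 CPM and 71.2 against 5.24 CPM. The Tconv class held 39.4 and 62.4 CPM of PDLIM1. On day 20 its interval (54.7 to 70.9) overlapped that of effector cells (57.6 to 87.0).

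Not all top genes separated effector Tregs from conventional cells. HOPX, a homeodomain cofactor found in memory T cells, was at 104 CPM (89.1 to 121) in effector, 9.09 CPM in naive-like and 102 CPM in Tconv-class cells on day 3, and at 209, 12.2 and 129 CPM on day 20. Granulysin (GNLY) stood at 83.0, 4.17 and 57.2 CPM and at 62.9, 2.62 and 71.4 CPM. FUT7, the fucosyltransferase that builds selectin ligands, stood at 52.9, 1.52 and 20.003 CPM and at 51.7, 0.87 and 21.9 CPM. In each of these 3, naive-like Tregs lay below both other classes, and for HOPX on day 3 and GNLY on day 20 effector cells did not lie clearly above the Tconv class. TNFRSF18, which encodes the Treg receptor GITR, was high in effector cells only among the 3 classes, at 259, 33.3 and 53.9 CPM and at 211, 27.1 and 61.6 CPM.

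**Figure D3:**
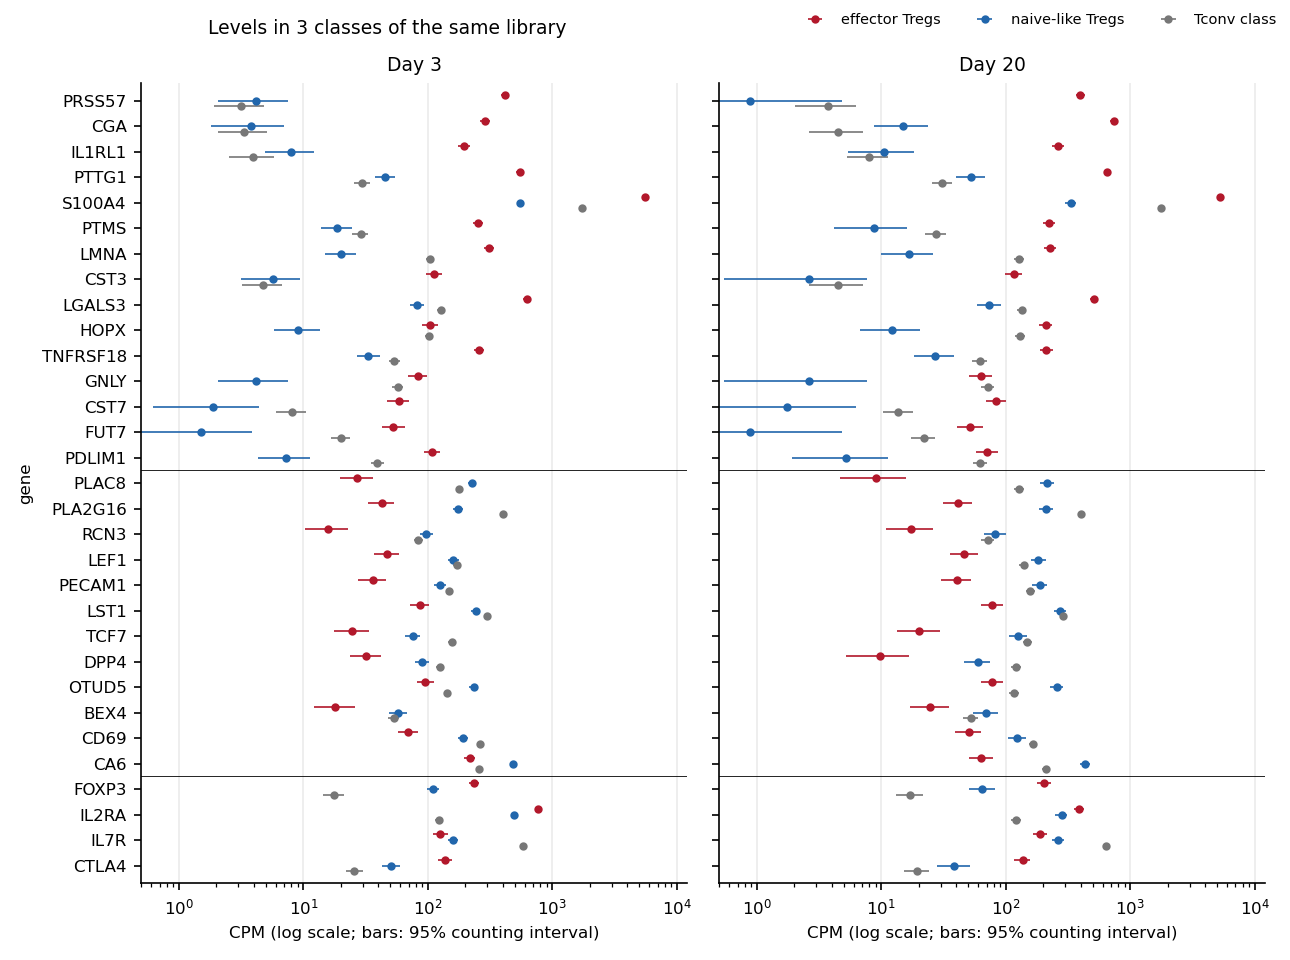
CPM of the named genes (log scale) in effector Tregs (red), naive-like Tregs (blue) and the Tconv class of the same library (grey) on day 3 and day 20. Bars are exact Poisson 95% intervals, and those that leave the left edge run below 0.5 CPM. Horizontal lines part the 15 higher genes, the lower genes reported here and 4 Treg reference genes, and the Tconv class lies near the naive-like cells for PRSS57 and near the effector cells for HOPX.

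The lower genes included transcription factors and surface molecules of naive T cells. PLAC8 stood at 27.1 (19.7 to 36.2) and 227 CPM (209 to 246) on day 3 and at 8.99 (4.65 to 15.7) and 215 CPM (189 to 244) on day 20. Its log2 ratios were -2.68 and -3.57. LEF1, a transcription factor of naive T cells, stood at 46.9 against 160 CPM and 46.5 against 183 CPM. Its partner TCF7 stood at 24.7 against 75.8 CPM and 20.2 against 125 CPM. PECAM1, the CD31 adhesion molecule of recent thymic emigrants, stood at 36.1 against 126 CPM and 40.5 against 188 CPM. Effector cells were low and naive-like cells high for each of these on both days, without overlap of intervals.

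The remaining lower genes were more varied. PLA2G16, a phospholipase, stood at 42.7 against 175 CPM and 41.2 against 212 CPM, and the Tconv class was higher still at 401 and 400.4 CPM. DPP4, the CD26 peptidase that is known to be low on Tregs, stood at 31.9 against 90.2 CPM and 9.74 against 59.4 CPM, with 124 and 121 CPM in the Tconv class. CD69, an early activation marker that retains cells in tissue, stood at 69.8 against 192 CPM and 50.2 against 124 CPM. LST1 stood at 86.0 against 242 CPM and 77.9 against 274 CPM. The deubiquitinase OTUD5 stood at 95.6 against 233 CPM and 77.9 against 256 CPM, and carbonic anhydrase CA6 at 216 against 482 CPM and 63.7 against 434 CPM. In both, naive-like Tregs also lay above the Tconv class, which held 143 and 116 CPM of OTUD5 and 258 and 211 CPM of CA6. RCN3 (log2 ratios -2.07 and -1.76) and BEX4 (-1.28 and -1.19) were also among them.

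Set against the Tconv class, more of the called genes stood apart in effector than in naive-like cells. Of the 201 higher genes, 84 were at least 2-fold higher in effector than in Tconv-class cells on both days, where 5.06% of 1977 genes were (47 of the 201 with TMM factors), and 8 were at least 2-fold lower in naive-like than in Tconv-class cells, where 0.748% of 1605 were (0.312% were 2-fold higher in naive-like cells). Naive-like cells lay within 2-fold of the Tconv class on both days for 174 of the 201. The Tconv class lay between the Treg classes on both days for 150. Of the 13 lower genes, 10 were at least 2-fold lower in effector than in Tconv-class cells (0.658% of all), and naive-like cells lay within 2-fold of the Tconv class for 10. Both counts share the effector or naive-like sums with the contrast that chose the genes and are given as a description. No share over all genes is given for the 47 with TMM factors, and none was computed for the counts within 2-fold or between the classes. Few of all genes were 2-fold apart between naive-like and Tconv-class cells on both days, so these counts mark no trait of the called genes. The Tconv class comes from a CD25high CD127low sort, so it is no sample of all conventional cells.

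Gene lists were scored over members with at least 20 CPM in one of the classes. A member under 20 CPM in naive-like cells was scored through its effector level alone. Its ratio could then only lie above 0, so its place on the effector side is no test. At that level 3799 genes could be scored on both days, 272 (7.16%) were 2-fold higher in effector cells and 17 (0.447%) lower, and the median gene stood at 0.43 on day 3 and 0.37 on day 20. The lists and members were chosen with earlier results of these data known. For most lists the number of members past 2-fold on both days is given with the 2 medians. Each median is over all members with that level on that day. The number past 2-fold with TMM factors follows, and with these the median gene lies at 0.03 and 0.06. No share of all genes at 20 CPM is given with TMM factors. At 50 CPM they gave 69 higher and 48 lower of 1901 genes.

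S100 proteins, annexins, galectins and related genes of memory cells formed a broad group on the effector side. Of 16 scored members, 12 were 2-fold higher and none lower, with medians of 1.58 and 1.69, and 9 were with TMM factors. Besides S100A4, LMNA and LGALS3, vimentin (VIM) stood at 3326 against 850.2 CPM and 3015 against 604 CPM, and annexin A2 (ANXA2) at 1428 against 319 CPM and 1041 against 235 CPM. ANXA1 was the exception, at 214 against 237 CPM and 193 against 316 CPM, with 652 and 792 CPM in the Tconv class. In the actin cytoskeleton list, 12 of 23 members were 2-fold higher (medians 1.02 and 1.04), but 2 with TMM factors, under which 22 of the 23 still lay above 0 on both days. Tropomyosin 4 (TPM4) stood at 161 against 19.7 CPM and 103 against 16.6 CPM, and gamma actin (ACTG1), which has near-identical copies, at 4419 against 1709.9 CPM and 3640.1 against 1173 CPM.

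Of 12 scored Treg core genes, 6 were 2-fold higher in effector cells (medians 0.89 and 1.11), and 1 with TMM factors, TNFRSF18. TNFRSF1B, which encodes TNF receptor 2, stood at 340 against 132 CPM and 217 against 71.7 CPM. ENTPD1, the CD39 enzyme that breaks down extracellular ATP, stood at 31.3 against 2.65 CPM and 21.0 against 0.87 CPM. RTKN2 went the other way in value, at 61.9 against 91.3 CPM and 56.2 against 76.9 CPM. It was the 1 of the 12 below 0 on both days, and 10 lay above 0 on both. The lowest ratio of the list on day 20, at -0.88, belonged to another member. Among effector Treg transcription factors, 5 of 12 were 2-fold higher (medians 0.92 and 1.04), and 2 with TMM factors. PRDM1, which encodes Blimp-1, stood at 200 against 81.5 CPM and 119 against 29.7 CPM. ZBTB32 stood at 46.9 against 1.89 CPM and 41.2 against 0.87 CPM, with at most 2.38 CPM in the Tconv class. MAF stood at 38.5 against 8.71 CPM and 29.97 against 8.74 CPM, and BATF at 192 against 84.5 CPM and 211 against 101 CPM, the latter just under 2-fold on day 20.

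Of 16 scored naive and resting T cell genes, 3 were 2-fold lower and none higher, with medians of -0.32 and -0.51, and 3 were lower with TMM factors. They include TCF7 and LEF1, named above. Of the 16, 9 lay below 0 on both days and 4 above it. ID3 was among those 4, at 36.7 against 19.7 CPM and 96.7 against 35.0 CPM. Of 8 scored markers of conventional helper cells, PLAC8 was lower, and the medians were -0.50 and -0.46. Lymphotoxin beta (LTB) stood at 1275 against 2195 CPM and 856 against 1776 CPM.

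Homing receptors were scored in 2 lists. Of 7 tissue homing genes, 3 were 2-fold higher (medians 0.95 and 1.26), also with TMM factors. These were ITGB7, the beta 7 integrin of gut homing, at 401 against 122 CPM and 336 against 115 CPM, CCR6, at 40.3 against 7.20 CPM and 36.7 against 6.99 CPM, and CCR10, a skin-homing receptor, at 33.1 against 1.14 CPM and 36.0 against 1.75 CPM. Of 7 lymph node homing and egress genes, 1 was lower and ITGB2, the beta 2 integrin chain of LFA-1, was higher, at 313 against 128 CPM and 273 against 83.0 CPM. With TMM factors ITGB2 was not past 2-fold on both days. Of 9 TNF receptor family members and ligands, TNFRSF18, TNFRSF1B and the death receptor FAS (78.8 against 27.3 CPM and 83.2 against 18.4 CPM) were higher, and TNFRSF18 alone with TMM factors, under which LTB was lower. The medians of that list were 0.71 and 0.44, against 0.43 and 0.37 for all genes. CTLA4 was the 1 of 3 co-inhibitory and co-stimulatory receptors past 2-fold, beside ICOS (60.1 against 31.8 CPM and 94.4 against 47.2 CPM) and SIRPG (176 against 120 CPM and 159 against 115 CPM), and none was with TMM factors. Their medians were 0.75 over 3 members on day 3 and 0.72 over 4 on day 20.

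Of 5 cytokines and suppressive mediators, 4 were 2-fold higher (medians 1.45 and 1.74), and 2 of 4 scored with TMM factors. CSF1, the macrophage growth factor, stood at 81.2 against 7.58 CPM and 135 against 4.37 CPM, with 18.4 and 33.8 CPM in the Tconv class. The soluble mediator FGL2 stood at 40.9 against 12.1 CPM and 24.7 against 6.12 CPM, and TGFB1 at 150 against 79.6 CPM and 171 against 92.7 CPM. IL10 was at or near 0, with at most 1.20 CPM. In the activation list, 9 of 19 members were higher and CD69 lower (medians 0.97 and 1.02), and 4 were higher with TMM factors. CD58, the ligand of CD2, stood at 95.02 against 19.7 CPM and 105 against 30.6 CPM, and the myosin MYO1F at 98.6 against 17.8 CPM and 102 against 10.5 CPM.

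Signalling and metabolic lists held fewer members past 2-fold. Of 14 T cell receptor signalling genes, the adaptor LAT (108 against 42.8 CPM and 126 against 46.3 CPM) was 2-fold higher. The list's medians of 0.30 and 0.38 differed from those of all genes by -0.12 and 0.0041, and none was past 2-fold with TMM factors. Of 9 IL-2 and STAT5 response genes, cyclin D2 (CCND2, 164 against 29.2 CPM and 59.2 against 11.4 CPM) was higher, also with TMM factors. The medians of that list, 0.47 and 0.45, lay near those of all genes (0.43 and 0.37), and 2 of the 9 lay below 0 on both days. Of 9 glycolysis genes, PFKL, LDHA and the lactate transporter SLC16A3 (124 against 31.4 CPM and 92.2 against 34.1 CPM) were higher (medians 0.95 and 0.84), and none with TMM factors. None of 19 oxidative phosphorylation genes was past 2-fold on both days (medians 0.58 and 0.54). None of 6 heat shock genes was, and their medians of 0.22 and 0.27 differed from those of all genes by -0.21 and -0.10. With TMM factors, which move all genes the same way, the heat shock medians (-0.23 and -0.18) and the T cell receptor median of day 3 (-0.10) lay below 0. Of 5 apoptosis regulators, BAX (282 against 106 CPM and 202 against 95.3 CPM) and FAS were higher, and none with TMM factors. Their medians were 0.64 and 0.83, and 2 of the 5 lay below 0 on both days. MT1M, the 1 scored metallothionein, stood at 69.8 against 33.7 CPM and 131 against 103 CPM.

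Interferon response and cell cycle genes also lay above the median gene. Of 14 interferon response genes, 5 were 2-fold higher (medians 0.93 and 0.86), and 3 with TMM factors. IFI27 stood at 236 against 76.2 CPM and 411 against 98.8 CPM. ISG15 stood at 145 against 42.4 CPM and 126 against 30.6 CPM, but at 207 and 223 CPM in the Tconv class, above both Treg classes. Of 8 proliferation genes, 4 were 2-fold higher, and 2 of 7 scored with TMM factors. The medians were 1.31 over the 13 members scored on day 3 and 1.02 over the 8 scored on day 20. The cycling marker MKI67 stood at 40.3 against 2.65 CPM and 33.7 against 0.87 CPM, and stathmin (STMN1) at 544 against 134 CPM and 226 against 78.7 CPM. MCM7, a DNA replication helicase subunit, stood on day 3 at 45.1 against 20.8 CPM and on day 20 at 16.5 against 23.6 CPM.

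**Figure D4:**
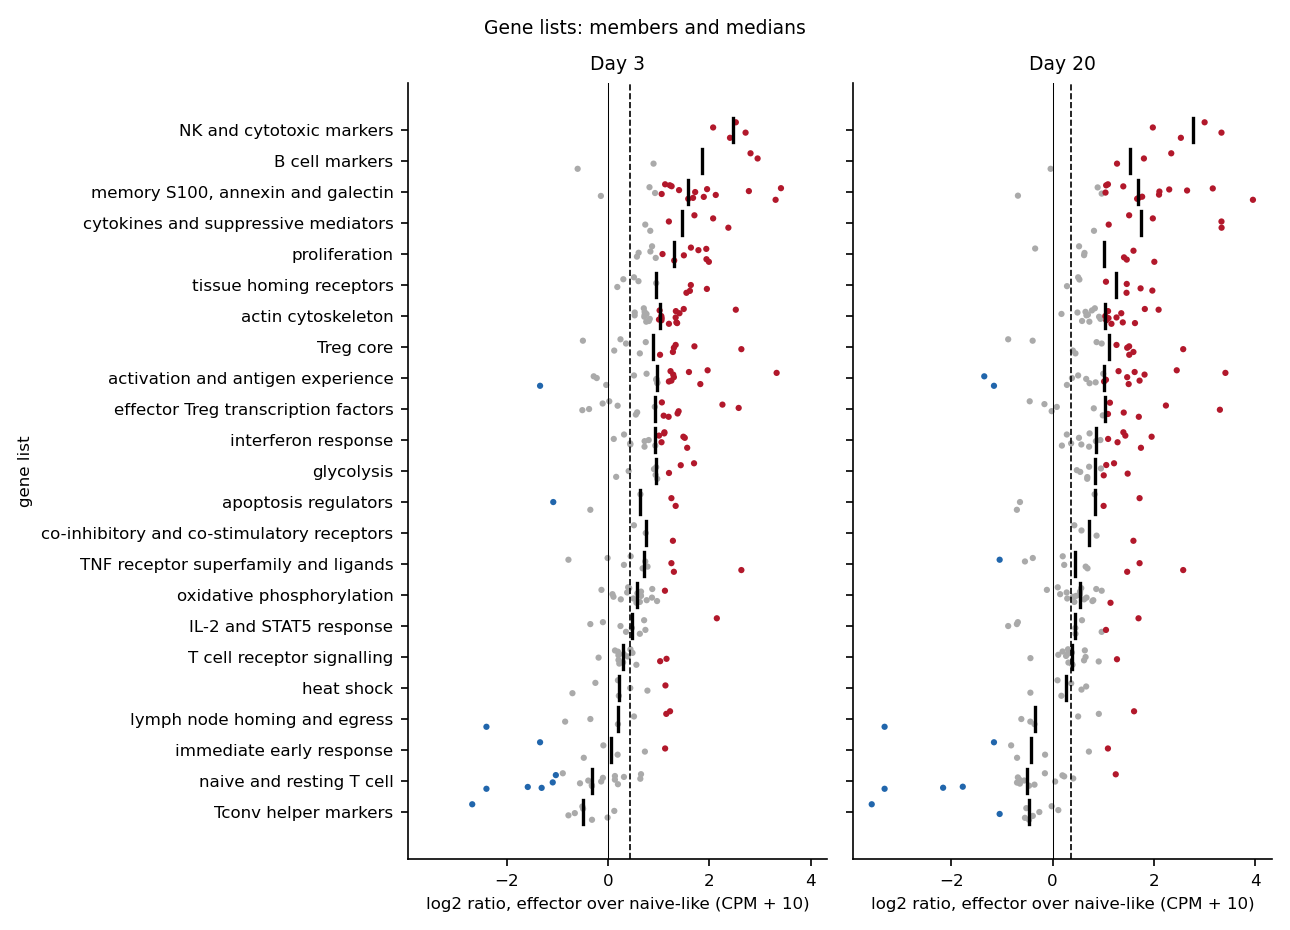
Log2 ratios of effector over naive-like Tregs (CPM + 10) for list members with at least 20 CPM on day 3 (left) and day 20 (right). Points are genes, red at 2-fold higher or more and blue at 2-fold lower or more, black bars are list medians and the dashed line is the median of all genes at that level (0.43 and 0.37). The memory list lies to the right on both days, at 1.58 and 1.69, and the naive list to the left, at -0.32 and -0.51.

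Markers of other cell types differed between the classes as well. Markers of natural killer and cytotoxic cells summed to 248 CPM in effector, 23.5 in naive-like and 125 in Tconv-class cells on day 3, and to 308, 18.4 and 199 CPM on day 20. The 3 members scored on both days (GNLY, GZMB and CST7) were higher in effector cells. Each held at most 4.17 CPM in naive-like cells and was scored through its effector level alone, so the filter set this direction. Granzyme B (GZMB) stood at 43.3 against 2.65 CPM and 39.7 against 2.62 CPM. Of the 12 found in the table, 5 were at 0 in both classes on each day. B cell markers summed to 399 CPM in effector, 97.8 in naive-like and 42.7 in Tconv-class cells on day 3 and to 248, 74.3 and 32.5 CPM on day 20, and 2 of 4 scored members were higher in effector cells. The immunoglobulin genes IGKC (208 against 18.2 CPM and 107 against 23.6 CPM) and IGHM (84.2 against 3.41 CPM and 53.9 against 2.62 CPM) led, CD79A stood at 18.6 against 33.3 CPM and 27.0 against 28.0 CPM, and MS4A1 was at or near 0. MHC class II genes, which belong to B cells, myeloid cells and activated T cells, were higher too: Mamu-DPB1 stood at 82.4 against 3.41 CPM and 56.2 against 5.24 CPM, and HLA-DPA1 at 58.9 against 2.65 CPM and 28.5 against 0.87 CPM. Both class II genes were likewise scored through the effector level alone. Genes of the immunoglobulin and class II families have close copies that the counting may split.

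Among monocyte markers, LYZ stood at 6.62 against 0.38 CPM and 10.5 against 0 CPM, and CST3, which other cells also express, was the 1 scored member. CD8A was at 0 in both classes on both days. Red cell markers summed to 200.3 against 205 CPM on the first day and 142 against 117 CPM on the second. Without the doublet-like cells, IGKC stood at 205 against 20.2 CPM and 133 against 20.1 CPM, and GNLY at 82.9 against 4.62 CPM and 56.0 against 2.74 CPM. In all, 184 genes were then higher and 14 lower, of which 165 and 13 were among those above. In the actin list 7 of 23 members were then past 2-fold, in place of 12, in the proliferation list 2 of 7, in place of 4 of 8, and among cytokines and suppressive mediators 2 of 4, in place of 4 of 5. The part of the B cell and cytotoxic markers in the other results was not tested.

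Genes past 2-fold on 1 day kept their direction on the other, with 1 exception. Of the genes past 2-fold higher on day 3 alone, 133 of 134 lay above 0 on day 20, the exception being the chaperone HSPH1 (1.13 and -0.0067), and all 97 past it on day 20 alone lay above 0 on day 3. Among all genes at 50 CPM, 76.3% lay above 0 on day 20 and 81.3% on day 3 by CPM. All 7 and 9 genes past 2-fold lower on 1 day alone lay below 0 on the other. These counts were not made with TMM factors. Among named genes with 50 CPM on both days and past 2-fold on 1 day alone, those with the largest difference between days were VBP1, RGS1, CTSL, GIMAP4 and IDH3G. VBP1, a prefoldin subunit, went from 119 against 46.6 CPM on day 3 to 60.7 against 56.8 CPM on day 20. Cathepsin L (CTSL) stood at 142 against 42.4 CPM and 56.2 against 37.6 CPM. GIMAP4, a GTPase of lymphocytes, stood at 165 against 37.5 CPM and 129 against 62.1 CPM. IDH3G, a subunit of mitochondrial isocitrate dehydrogenase, stood at 89.0 against 72.0 CPM and 78.7 against 33.2 CPM. RGS1, which damps chemokine receptor signals, stood at 230 (208 to 255) against 282 CPM (262 to 303) on day 3 and at 71.9 (58.3 to 87.8) against 198 CPM (173 to 226) on day 20. The Tconv class held 61.0 and 59.7 CPM of RGS1, so effector cells were above it on day 3 and near it on day 20. The day and the library cannot be told apart.

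The naive-like cells that lay in the effector cluster were intermediate by the medians of the called genes. On day 3 these 83 cells were above the other naive-like cells for 190 of the 201 higher genes (median log2 ratio 0.64) and below them for 11 of the 13 lower genes (median -0.56). Effector cells were above them in turn by a median of 0.89 for the higher genes. On day 20 the 33 such cells were above for 169 of 201 (median 0.76) and below for 11 of 13 (median -0.52). On day 3 they held 2183 CPM of S100A4 and 24.0 CPM of PRSS57. Ribosomal protein genes took 39.0% of their UMIs on day 3 and 37.8% on day 20, against 44.1% and 43.9% in the other naive-like cells. A lower ribosomal share raises the CPM of other genes, and the share of all genes above the other naive-like cells was not computed. These cells were also picked by the cluster that holds the effector cells, so the counts are a description and no test. With both classes limited to their main cluster, 228 genes were higher and 14 lower.

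The CFSE-positive library of day 3 held the same pair of classes, with 1124 effector and 123 naive-like cells by the submitters' names. Its counts did not enter the calls above. Its class names come from the same annotation, and most called genes were marked by the submitters for ordering cells. The values below thus describe these classes and do not test the calls. Shares among the marked genes alone were not computed. On day 20 no CFSE-positive cell was named effector. Of the 201 genes, 171 had at least 50 CPM in a CFSE-positive class. Of these, 65 were 2-fold higher in CFSE-positive effector cells, where 10.8% of 2426 genes were, 167 lay above 0 and none was 2-fold lower. Their median ratio was 0.84, against 0.44 for all genes. With TMM factors, 30 of the 201 genes were 2-fold higher there and 1 of the 13 lower genes, LEF1, was 2-fold lower. No share over all genes is given for this pair with TMM factors, so these 2 counts cannot be set against one. Of the 13 lower genes, 10 could be scored, none was 2-fold lower (0.371% of all genes were), 6 lay below 0 and 1, CA6, was 2-fold higher at 713 against 296 CPM. PLAC8 stood at 225 against 370 CPM.

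The leading genes parted between the sorts. IL1RL1 stood at 220 CPM (204 to 236) in CFSE-positive effector cells, TNFRSF18 at 326 CPM and CSF1 at 215 CPM (200 to 232), beside 194, 259 and 81.2 CPM in the endogenous effector cells of day 3. PRSS57 stood at 9.69 CPM (6.63 to 13.7) there, beside 419 CPM. CGA had no UMI among 3302586, which by a limit of 3 counts allows up to 0.91 CPM (1.12 CPM by the exact Poisson interval), beside 289 CPM. FUT7 stood at 0.30 CPM (0.0077 to 1.69), beside 52.9 CPM. The intervals of these 3 did not overlap between the sorts, which are 2 libraries without replicates. Neither did those of S100A4, at 440 CPM (417 to 463) in CFSE-positive and 5544 CPM in endogenous effector cells. CFSE-positive naive-like cells held 74.0 CPM of IL1RL1 and of TNFRSF18, 126 CPM of CSF1 and 93.4 CPM of S100A4. The log2 ratio of the CFSE-positive pair was 1.45 for IL1RL1, beside 3.51 in the endogenous pair on day 3. For CSF1 it was 0.73, short of 2-fold, beside 2.38, and for S100A4 2.12, beside 3.31. The 4 scored higher genes that did not lie above 0 in the CFSE-positive cells were IGKC, at 146 against 177 CPM, LIMS1, IFI27 and RNASEH2B.

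**Figure D5:**
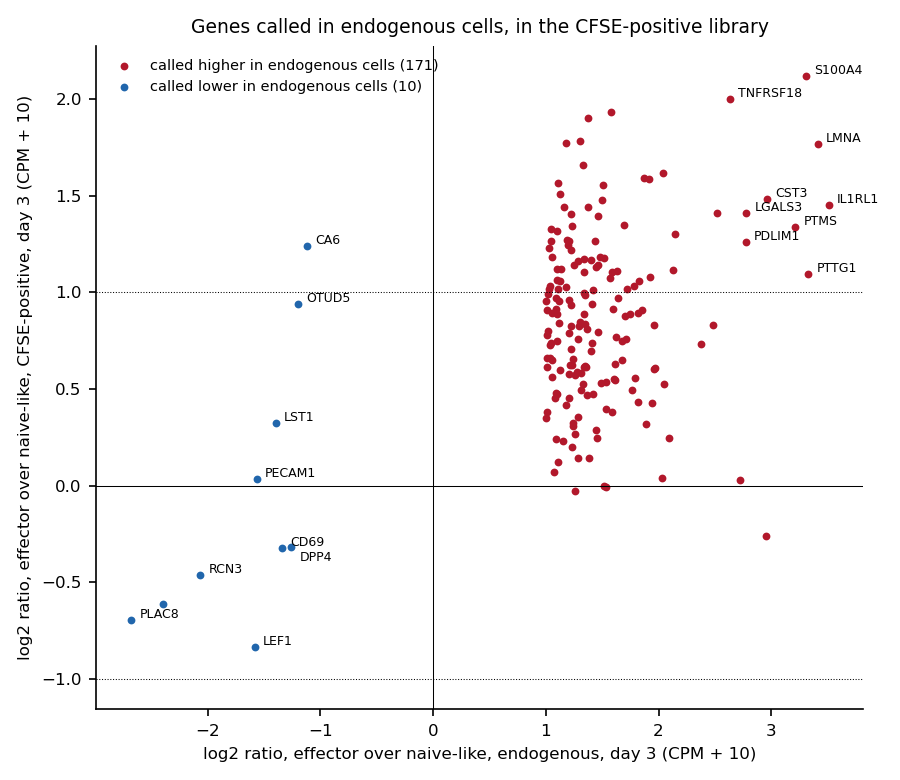
Log2 ratio of effector over naive-like cells (CPM + 10) on day 3 in the endogenous sort (horizontal axis) and in the CFSE-positive sort (vertical axis), for the 171 higher (red) and 10 lower (blue) genes with at least 50 CPM in a CFSE-positive class. Of the red points, 167 lie above 0 on the vertical axis and 65 at or above 2-fold (dotted line), while no blue point reaches 2-fold lower and CA6 lies on the opposite side.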

How the data were processed

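The authors deposited UMI counts of each gene in each cell as whole numbers, with the library, cluster and class for each cell and no scaling that the files record. The chemistry was 10x 3' version 2 per the labels' protocols. The submitters' processing notes name Cell Ranger 2.1.1. The genome build is not given in the sources used here. All 25397 cells matched their deposited UMI totals. Counts were summed per class and library, scaled to CPM, and compared as log2 ratios with a pseudocount of 10 CPM. No cell was left out, doublets were not called, and 0 sample columns went unused. Intervals are exact Poisson and Clopper-Pearson intervals at 95%.

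The text names, of the genes called on both days, the 15 in each direction whose weaker day was strongest (13 lower genes exist, of which 1 is not reported here), without unnamed, mitochondrial, ribosomal protein and receptor segment genes; FOXP3, IL2RA, IL7R and CTLA4; up to 4 members per list with the largest mean ratio; and, of genes past 2-fold on 1 day alone, the 5 that differ most between days. Other list members were named after their values were seen. The members and lists were chosen with earlier results of these data known. The lists were Treg core, naive and resting T cell, effector Treg transcription factors, memory S100, annexin and galectin, activation, lymph node homing, tissue homing, TNF receptor family, co-inhibitory and co-stimulatory receptors, IL-2 and STAT5, cytokines and suppressive mediators, T cell receptor signalling, immediate early, MHC class II, actin, glycolysis, oxidative phosphorylation, interferon, proliferation, apoptosis, heat shock, metallothionein, and markers of conventional helper, CD8, cytotoxic, B, monocyte and red cells and platelets.

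For scaling only, the alternatives were median-of-ratios factors (DESeq2 1.42.0), TMM factors (edgeR 4.0.16) and totals of named genes. The others were pseudocounts, filters, fold thresholds, per-cell means, thinning, list means, and leaving out doublet-like or off-cluster cells. The calling script was tested on simulated data.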

Additional observations from a re-analysis of the deposited data

Results flagged for a closer look

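For 2 gene lists the medians of both days lay on opposite sides of 0. The median of lymph node homing and egress genes was 0.20 on day 3 and -0.36 on day 20. The median of immediate early response genes was 0.051 on day 3 and -0.42 on day 20. In the first list S1PR1, the receptor for exit from lymph nodes, stood on day 3 at 39.7 against 33.3 CPM and on day 20 at 29.2 against 40.2 CPM. In the second, BTG1 stood at 69.2 against 74.3 CPM and 57.7 against 109 CPM, and ZFP36 at 103 against 147 CPM and 95.2 against 161 CPM. With TMM factors both medians lay below 0 on both days (-0.17 and -0.63, -0.36 and -0.76). The difference between days was not tested, since each day is 1 library.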

How the results depend on the processing

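With 1 library per sort and day, the values carry no replicate error, and no replicate could be left out. No paired analysis was possible because the groups share no replicate numbers beyond a single library each. Each alternative listed with the processing was run. For TMM factors, median-of-ratios factors and totals of named genes in turn, higher and lower genes numbered 69 and 48, 68 and 49, and 60 and 77 on both days, 101 and 147, 99 and 147, and 99 and 147 on day 3, and 118 and 76, 114 and 77, and 95 and 122 on day 20. Effector cells were then 2-fold above the Tconv class for 47, 49 and 45 of the 201 genes. In CFSE-positive cells 30, 30 and 26 of the higher and 1, 1 and 2 of the lower genes were past 2-fold. No shares over all genes are given for these Tconv and CFSE-positive counts under the alternative scalings. With a pseudocount of 30 CPM, 118 genes were higher on both days, 177 higher and 13 lower on day 3, and 155 higher on day 20. There, TCF7, DPP4 and BEX4 on day 3 and BEX4 and CD69 on day 20 no longer reached 2-fold. Without a filter on low values, 21 genes were lower on both days, 43 lower on day 3, and 511 higher and 39 lower on day 20. The median of co-inhibitory and co-stimulatory receptors less that of all genes then turned to -0.093 on day 3; the cause was not tested. At 1.5-fold, 653 genes were higher and 62 lower on both days, 942 and 117 on day 3, and 839 and 118 on day 20. At 3-fold these were 53 and 4, 77 and 6, and 79 and 12, with 4 of the named lower genes past it. Of all cells of the sort, effector cells made up 13.8% and 19.0%. With cells thinned to 1000 UMIs, DPP4 and OTUD5 missed 2-fold on day 3. Of the summary values, 112 kept their side and lay near the main value and 50 moved. Of the values of single genes and lists, 960 did, 7 fell under 2-fold and 1 turned. Per-cell means gave 175 higher and 14 lower genes, thinned cells 162 and 13, and thinned sums 195 and 13. Depth limits genes under about 2 CPM, where a class holds few UMIs.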
